A study of Mus musculus with 8 samples.

Results

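Lysosomal hydrolases are the enzymes that break down lipids, sugars, proteins and nucleic acids inside the lysosome, and activators are small proteins that present lipids to some of them. The group described here holds 33 such genes, taken as a named list of lysosomal degradative enzymes and activators, out of 15867 genes in the table. All 33 were measured, and all 33 passed the filter on low values, a mean of at least 10 normalised counts. Most members are soluble enzymes of the lysosomal lumen. Hgsnat, an acetyltransferase of the lysosomal membrane, and Gba2, known as the non-lysosomal glucosylceramidase, stand outside that description.

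The RNA came from mouse adipose tissue macrophages, selected by the surface protein F4/80 after 20 weeks on a high-fat diet, and was sequenced after poly(A) selection. Both groups carried loxP-flanked alleles of 2 microRNA clusters, Mirc11fl/fl and Mirc22fl/fl, the genes of microRNAs with 3 seeds, those of miR-23, miR-24 and miR-27. The 4 control samples were Lyz2+/+, and the 4 knockout samples were Lyz2Cre/Cre, so that Cre recombinase was made from the lysozyme gene of myeloid cells. Lyz2 itself, which the Cre insertion disrupts, lay between 156727 and 204853 normalised counts in the control libraries and between 174 and 273 in the knockout libraries. No group had Cre with intact clusters, so loss of the clusters, loss of Lyz2 and the presence of Cre cannot be told apart. The labels do not say whether a sample is 1 mouse, and a p-value here speaks only for the spread among the libraries sequenced, which may be technical. Recovered reads per library ranged from 31789395 to 46621080. Values are gene counts scaled by the authors for library size, called normalised counts below, and differences are knockout minus control on the log2(normalised count + 1) scale.

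Hydrolases of the lumen are made in the endoplasmic reticulum, tagged with mannose 6-phosphate in the Golgi and carried to the lysosome by receptors for that tag. There many of those that break down sugar chains and sphingolipids act in series, each removing the group that the previous step exposed. Inherited loss of a single such enzyme leaves its substrate stored in the cell. Macrophages are rich in these enzymes because they digest dead cells, lipoproteins and debris, and in obese fat tissue they take up lipid released by adipocytes. Many of the genes are targets of the MiT/TFE transcription factors, which bind E-box motifs with the core letters CACGTG.

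Of the 33 members, 5 fell in the knockout, 1 rose and 27 did not pass the test (limma, two-sided, Benjamini-Hochberg adjusted over 15862 genes, threshold 0.05). The enzymes that fell were Pla2g15, Galc, Scpep1, Hgsnat and Ids, by 0.24 to 0.59 on the log2 scale, and the enzyme that rose was Gaa, by 0.64. Across all genes tested, 3.61% passed, 2.38% lower (377 genes) and 1.24% higher (196 genes). When each library was scaled to the same total, 244 genes passed lower and 245 higher, and the members that passed were Gaa, Galc, Pla2g15 and Scpep1. Among the 7377 genes at least as abundant as the least abundant member, 5.35% passed, 4.09% lower and 1.26% higher, so abundant genes passed more often than the table as a whole. The estimated difference was below 0 for 27 members and above 0 for 6, where 49.5% of all genes were below 0. Galns, Man2b1, Aga, Lgmn and Plbd2 turned above 0 with the same total in each library. At an unadjusted limma p under 0.05, 15 members were lower and 2 higher, beside 21.2% of all genes, 10.4% lower and 10.8% higher. Its median over the members was -0.16, beside 0.00 over all genes and -0.04 over those 7377 genes.

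The groups did not overlap for 13 members that were lower in every knockout library and for 2 members that were higher, Gaa and Gba2. For all genes the groups did not overlap in 13.7%, with 8.21% lower and 5.52% higher. The count of members that fell depended on the libraries in the fit. It was 4 without control replicate 2 or knockout replicate 4, 2 without control replicate 1 or 4 or knockout replicate 1, 2 or 3, and 1 without control replicate 3. The authors' deposited table, made with DESeq2, called 11 members lower and 2 higher, where 10.9% of its 14309 genes with an adjusted p passed. DESeq2 run here on the recovered reads gave the same counts of members, with 6.23% of genes lower and 4.66% higher. edgeR called the same 6 members as limma, with 3.51% of genes passing, 2.31% lower and 1.2% higher.

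**Figure D1:**
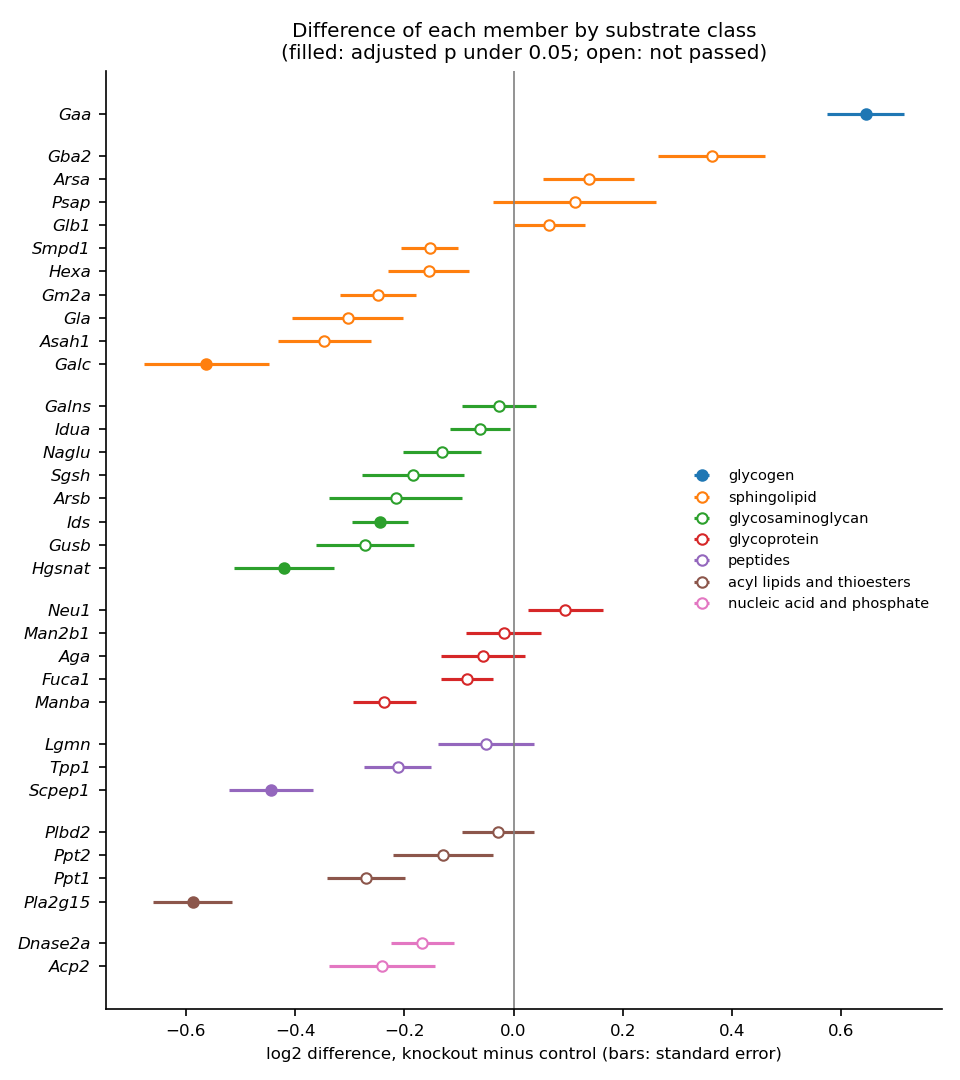
Knockout minus control difference of the 33 members on the log2(normalised count + 1) scale, grouped by substrate, with bars of 1 standard error (n = 4 per group) and filled points for the members past the limma threshold. The standard errors, here and with the differences in the text, are limma's, which move each gene's spread toward that of genes of like abundance. Gaa lies farthest to the right at 0.64, Pla2g15 farthest to the left at -0.59, and 27 of the 33 points lie below 0.

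Gaa, acid alpha-glucosidase, releases glucose from glycogen inside the lysosome, and its inherited loss causes Pompe disease. Its normalised counts were 4693, 4148, 4866 and 5102 in the control, in the order of the replicate numbers 1 to 4, and 7660, 6979, 7105 and 7598 in the knockout. Values of other genes follow the same order. Every knockout library lay above every control library, the nearest being 5102 and 6979. The mean was 4702 ± 406 (SD, n = 4) in the control and 7336 ± 344 (SD, n = 4) in the knockout, a difference of 0.64 with a standard error of 0.07 and a limma adjusted p of 0.00367. Leaving out any 1 of the 8 libraries kept this call. The gene lies on the plus strand at chr11:119267887-119285454 (mm10, GENCODE M21).

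Promoter matches are shown here because the E-box core is the motif that the MiT/TFE factors bind. RefSeq promoters (GRCm38.p6, 250 bases before to 50 bases after the start) were matched for 28 of the 33 members, which have 34 promoters. The letters CACGTG, the same on both strands, stood in 7 of these 34 promoters (20.59%) and in 7.15% of all 32851 promoters of the table. The longer TCACGTGA, which contains the core, stood in 1 of the 34 (2.941%), that of Gla, against 0.9741% of all. The windows below run 5′ to 3′ on the gene's strand, with the core in capitals.
Gaa, plus strand, chr11:119267811-119267840: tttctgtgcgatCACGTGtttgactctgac
Gla, first match, minus strand, chrX:134601215-134601244: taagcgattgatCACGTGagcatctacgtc
Gla, next match, minus strand, chrX:134601182-134601211: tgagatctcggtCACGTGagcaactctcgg
Arsa, minus strand, chr15:89477423-89477452: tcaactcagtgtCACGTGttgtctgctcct
Glb1, plus strand, chr9:114401018-114401047: ctgcttctgagtCACGTGgcctacagaggc
Lgmn, minus strand, chr12:102439124-102439153: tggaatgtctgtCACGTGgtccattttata
Naglu, plus strand, chr11:101070009-101070038: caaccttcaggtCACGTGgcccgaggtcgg
Sgsh, minus strand, chr11:119355522-119355551: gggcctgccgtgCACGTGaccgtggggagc
For Lgmn, another promoter window, chr12:102439679-102439978, did not contain the core letters. Of these 7 genes, Gaa rose and the other 6 did not pass the test. The promoter windows of Pla2g15, Scpep1, Galc and Ids did not contain the core letters. Hgsnat, which also fell, was among the members without a matched promoter. A match of the core is a run of letters and not a shown binding site.

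Mature microRNAs of the deleted clusters are shown with their seed, bases 2 to 8, in capitals, because the clusters encode them. miR-23b-3p is named only, without its sequence. RefSeq gives the first of these on the plus strand at chr8:84208563-84208583, the second at chr8:84208727-84208747, the third at chr13:63300760-63300780 and the last at both chr8:84208875-84208896 and chr13:63301251-63301272.
miR-23a-3p: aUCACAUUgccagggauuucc
miR-27a-3p: uUCACAGUggcuaaguuccgc
miR-27b-3p: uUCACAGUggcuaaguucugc
miR-24-3p: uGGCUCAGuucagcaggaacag
miR-27a-3p and miR-27b-3p have the same seed. The 8-base matches searched in the annotated 3′ untranslated regions, on the transcript strand, were AATGTGAA for miR-23, ACTGTGAA for miR-27 and CTGAGCCA for miR-24.

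At least 1 of these matches stood in 6 of the 33 members (18.18%) and in 19.56% of 14808 genes with an annotated region. The miR-23 match stood in 1 member against 7.05% of genes, the miR-27 match in 0 members against 6.395%, and the miR-24 match in 5 members (15.15%) against 8.718%. The members' regions were shorter, with a median of 965 bases beside 1172. Each matched site is printed with its 8 bases in capitals, and the coordinates are those of the 8 bases.
Ids, miR-23, minus strand, chrX:70345788-70345795: ctttctcaAATGTGAAattcaagt
Dnase2a, miR-24, plus strand, chr8:84911549-84911556: cagtgctgCTGAGCCAcactccct
Galns, miR-24, minus strand, chr8:122578725-122578732: ccaaccctCTGAGCCAccctacct
Gba2, miR-24, minus strand, chr4:43567113-43567120: ctgcagccCTGAGCCAataggaca
Gla, miR-24, minus strand, chrX:134589226-134589233: cttaatcaCTGAGCCAgcaagctc
Neu1, miR-24, plus strand, chr17:34935891-34935898: tttgccagCTGAGCCAtcttgctg
Ids fell, and the other 5 did not pass the test. Among those 5, Gba2 was higher (0.36) and Dnase2a lower (-0.17) in every knockout library, without overlap. Gla (-0.30), Galns (-0.03) and Neu1 (0.09) had overlapping groups. Of the 5, the authors' deposited table called only Gba2, higher. Gaa had no match. A match is a run of letters and not a shown target.

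The sphingolipid enzymes and activators were the largest class, with 10 members, of which 1 fell and 9 did not pass. Galc, galactosylceramidase, removes galactose from galactosylceramide and psychosine and is lost in Krabbe disease. Its normalised counts were 7483, 6345, 6054 and 6565 in the control and 3637, 4767, 4318 and 5298 in the knockout. All 4 knockout libraries lay below all 4 control libraries, with knockout replicate 1 the lowest. The means were 6611 ± 617 and 4505 ± 704 (SD, n = 4 each), a difference of -0.56 with a standard error of 0.11 and a limma adjusted p of 0.0349. The call was lost in 7 of the 8 fits without 1 library. Galc lies on the minus strand at chr12:98202294-98259459, and 8.48% of its exon bases overlap another gene on the opposite strand, while the sources used here do not say whether counting used the strand.

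Psap encodes prosaposin, which is cut into the saposins that present sphingolipids to Galc, Arsa, Gla and other hydrolases. Its normalised counts were 413027, 390325, 402693 and 473108 in the control and 443936, 405984, 478836 and 485052 in the knockout. The groups overlapped, and the difference was 0.11 with a limma standard error of 0.15 (limma adjusted p = 0.720). The authors' deposited DESeq2 table gave Psap a smaller standard error, 0.09, and did not call it either (DESeq2 adjusted p = 0.481). Gm2a, the activator that lifts GM2 ganglioside out of the membrane for Hexa, ranged from 6989 to 8448 in the control and from 6106 to 6696 in the knockout. Its groups did not overlap, and the difference of -0.25 did not pass (limma adjusted p = 0.0886).

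Asah1, acid ceramidase, ranged from 9965 to 12370 in the control and from 7856 to 9181 in the knockout, without overlap (-0.35, limma adjusted p = 0.0619). Gba2 went the other way, from 1289 to 1629 in the control and from 1763 to 2247 in the knockout, also without overlap (0.36, limma adjusted p = 0.0819). Smpd1, acid sphingomyelinase, lay between 1424 and 1467 in the control and between 1234 and 1396 in the knockout, without overlap, a difference of -0.15. The authors' deposited table called Asah1 and Gm2a lower and Gba2 higher. Gla, the alpha-galactosidase lost in Fabry disease (-0.30), and Hexa, the alpha subunit of beta-hexosaminidase (-0.16), had overlapping groups. Arsa, arylsulfatase A (0.14), and Glb1, beta-galactosidase (0.07), were estimated above 0 and also overlapped. Of Arsa exon bases 19.76% overlap a gene on the opposite strand.

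Enzymes of glycosaminoglycan breakdown, which strip heparan, dermatan, keratan and chondroitin sulfate, had 8 members, of which 2 fell and 6 did not pass. All 8 estimates were below 0 with all libraries, with a median of -0.20, except that Galns turned to 0.0321 with the same total in each library. Galns also turned above 0 without control replicate 1 (0.0171), knockout replicate 1 (0.000698) or knockout replicate 2 (0.00275). Ids, iduronate 2-sulfatase, removes sulfate from heparan and dermatan sulfate and is lost in Hunter syndrome. Its normalised counts were 3148, 2838, 2987 and 2972 in the control and 2416, 2621, 2450 and 2598 in the knockout. Every knockout library lay below every control library, and the means were 2986 ± 127 and 2521 ± 103 (SD, n = 4 each). The difference of -0.24 had a standard error of 0.05 and a limma adjusted p of 0.0388, and the call was lost in 7 of the 8 fits without 1 library. Ids lies on the minus strand at chrX:70343069-70365084.

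Hgsnat transfers an acetyl group to heparan sulfate from the cytosolic side and is lost in a form of Sanfilippo syndrome. Its normalised counts were 5086, 4760, 4793 and 5137 in the control and 4053, 3707, 4068 and 3039 in the knockout. The groups did not overlap, and knockout replicate 4 was the lowest. The difference was -0.42 with a standard error of 0.09 and a limma adjusted p of 0.0428, from means of 4944 ± 195 and 3717 ± 482 (SD, n = 4 each), and this call too was lost in 7 of the 8 fits. Hgsnat lies on the minus strand at chr8:25944453-25976753.

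Gusb, beta-glucuronidase, had the most counts in this class, with 26850, 22690, 22584 and 22275 in the control and 17044, 19567, 20255 and 21347 in the knockout. The groups did not overlap, but control replicate 1 stood above the other control libraries and knockout replicate 1 below the other knockout libraries. The difference was -0.27 with a standard error of 0.09 (limma adjusted p = 0.131), and the authors' deposited table called it lower. The other enzymes that act on heparan sulfate, Idua (-0.06), Naglu (-0.13) and Sgsh (-0.18), had overlapping groups, as did Arsb (-0.22) and Galns (-0.03), 2 sulfatases. Of Arsb exon bases 59.71% overlap genes on the opposite strand, and of Sgsh exon bases 21.92%, so their reads may be shared.

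**Figure D2:**
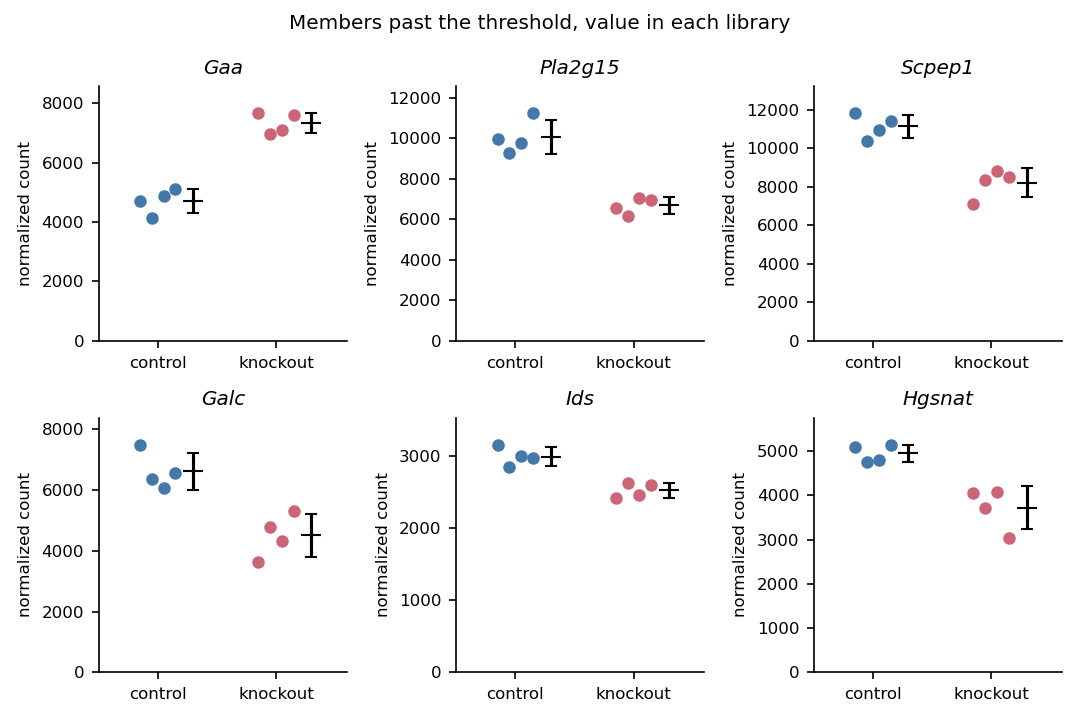
Normalised counts of the 6 members past the limma threshold in each of the 4 control and 4 knockout libraries, with a horizontal bar at each group's mean and an error bar of 1 SD. In every panel the groups lie apart, with the knockout above the control for Gaa and below it for Pla2g15, Scpep1, Galc, Ids and Hgsnat.

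None of the 5 enzymes that trim the sugars of glycoproteins passed in limma, where 1 had an unadjusted p under 0.05. edgeR called 0 of them, and the authors' deposited table called Manba lower. Manba, beta-mannosidase, had 3023, 2707, 2876 and 3110 normalised counts in the control and 2351, 2578, 2551 and 2453 in the knockout. Its groups did not overlap, and the difference was -0.24 with a standard error of 0.06 (limma adjusted p = 0.0608). Man2b1, lysosomal alpha-mannosidase, had 30404, 30546, 32826 and 35117 in the control and 33200, 31723, 31968 and 30258 in the knockout, which overlapped throughout. Its difference of -0.02 had a standard error of 0.07. Fuca1, alpha-fucosidase (-0.08), Aga, aspartylglucosaminidase (-0.06), and Neu1, sialidase (0.09), had overlapping groups.

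Among the 3 peptidases, 1 fell and 2 did not pass. Scpep1, a serine carboxypeptidase, had 11825, 10409, 10963 and 11400 normalised counts in the control and 7121, 8369, 8845 and 8519 in the knockout. The groups did not overlap, and knockout replicate 1 was the lowest library. The means were 11150 ± 606 and 8214 ± 755 (SD, n = 4 each), a difference of -0.44 with a standard error of 0.08 and a limma adjusted p of 0.0196. The call was lost without control replicate 3 (limma adjusted p = 0.0609) and kept in the other 7 fits. Scpep1 lies on the minus strand at chr11:88924020-88955465, and 4.58% of its exon bases overlap another gene.

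Lgmn, legumain, which cuts after asparagine and activates cathepsins, had 56285, 49943, 53195 and 63715 in the control and 51197, 53725, 55182 and 54681 in the knockout. The knockout libraries all lay within the control range, and the difference was -0.05 with a standard error of 0.09. Tpp1, tripeptidyl peptidase, ranged from 12065 to 14375 in the control and from 11066 to 11684 in the knockout, without overlap, a difference of -0.21 (limma adjusted p = 0.0976).

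Of the 4 enzymes acting on acyl lipids and thioesters, 1 fell and 3 did not pass. Pla2g15, the lysosomal phospholipase A2 that degrades phospholipids, including bis(monoacylglycero)phosphate, had 9982, 9281, 9739 and 11226 normalised counts in the control and 6565, 6158, 7060 and 6956 in the knockout. The highest knockout library stood well below the lowest control library. The means were 10057 ± 832 and 6685 ± 411 (SD, n = 4 each), a difference of -0.59 with a standard error of 0.07 and a limma adjusted p of 0.00562, and the call was kept in all 8 fits without 1 library. Pla2g15 lies on the plus strand at chr8:106150399-106164715. Ppt1, the thioesterase that removes palmitate from proteins, ranged from 4075 to 4878 in the control and from 3464 to 3917 in the knockout, without overlap (-0.27, limma adjusted p = 0.0780). Ppt2, a related thioesterase (-0.13), and Plbd2, a phospholipase B-like protein (-0.03), had overlapping groups, and 43.13% of Ppt2 exon bases overlap a gene on the same strand.

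The remaining class held Dnase2a, which digests DNA from engulfed cells, and Acp2, an acid phosphatase, and neither passed in limma, edgeR or DESeq2, while both had an unadjusted limma p under 0.05. Dnase2a had 6730, 6502, 6523 and 6620 normalised counts in the control and 5357, 5875, 6394 and 5911 in the knockout. The groups were apart by a narrow gap, and the difference was -0.17 with a standard error of 0.06. Acp2 ranged from 5347 to 7374 in the control and from 5073 to 5425 in the knockout, a difference of -0.24, with overlap.

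**Figure D3:**
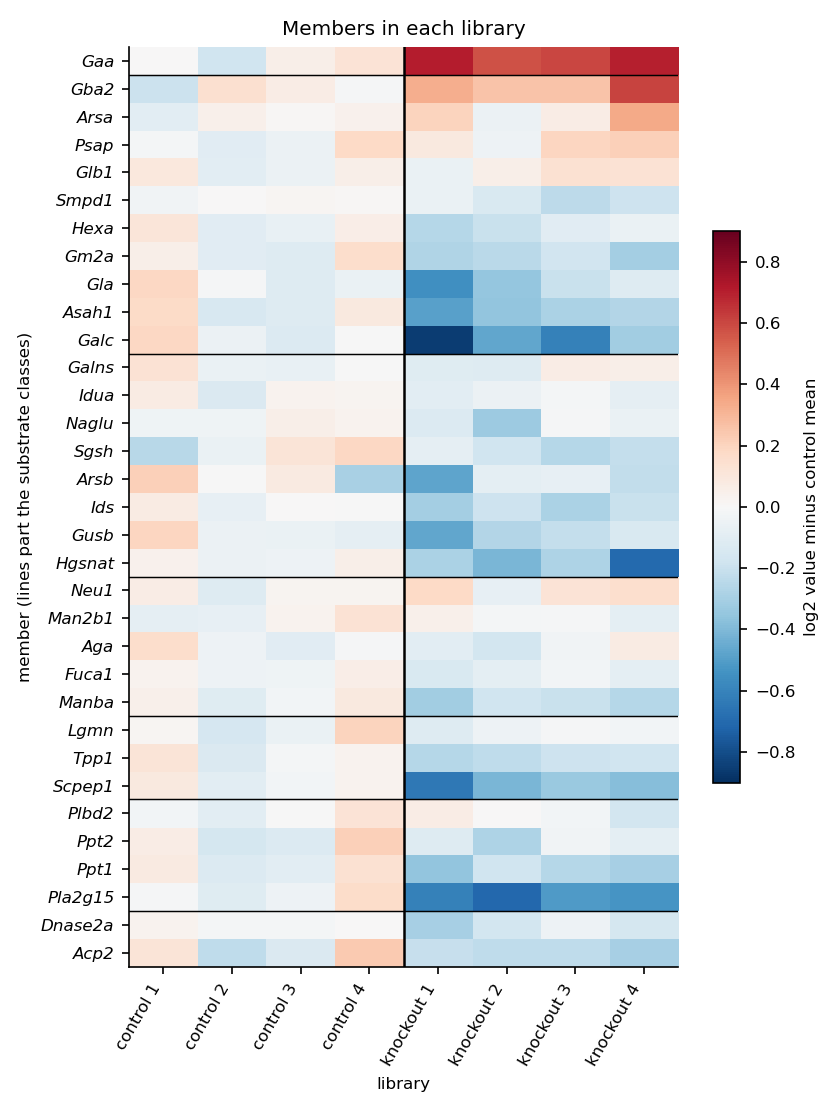
Each member's log2(normalised count + 1) in the 8 libraries as a deviation from that member's control mean, with colour on a scale in log2 units and members ordered by substrate class. Gaa and Gba2 are high in the 4 knockout libraries, and most other rows are low there, with knockout replicate 1 the lowest knockout library for 16 of 33 members.

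Levels between genes were compared as normalised counts per kilobase of merged exons. Psap had the highest mean over the 8 libraries, 159118 per kb, followed by Lgmn at 27126, Hexa at 14899, Man2b1 at 8374 and Gusb at 5728. Sgsh was the lowest at 438.5 per kb, with Gba2 at 478. In raw share of the members' summed normalised counts, Psap made up 58.4% to 61.1% in the control and 61.6% to 65.0% in the knockout. The members together took 1.77% to 1.98% of each control library's total and 1.89% to 2.02% in the knockout. Without Psap the share was 0.715% to 0.771% in the control and 0.676% to 0.725% in the knockout, with overlap.

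**Figure D4:**
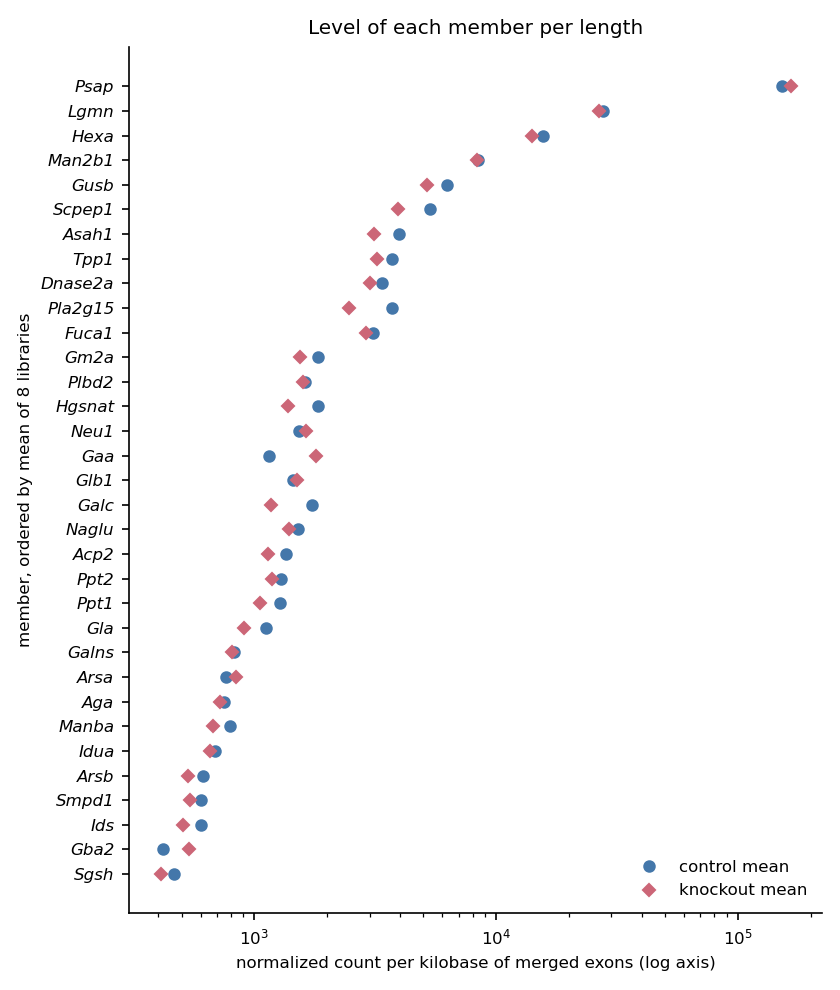
Mean normalised counts per kilobase of exon for the 33 members in the control and the knockout, on a log axis. Psap stands at 159118 per kb over the 8 libraries and Sgsh at 438.5, and for most members the points of both groups lie close together.

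Libraries differed across the members as a set. Control replicate 2 was the lowest control library for 20 of the 33 members, and control replicates 1 and 4 were the highest for 15 and 14. In the knockout, replicate 1 was the lowest for 16 members and replicate 3 the highest for 13. The mean deviation of the members on the log2 scale from the control mean was 0.05, -0.08, -0.03 and 0.06 in the control libraries, in order, and -0.18, -0.16, -0.10 and -0.10 in the knockout libraries. The knockout libraries were all below the control libraries on this mean, which is given without a test.

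Among 26 other luminal hydrolases, 2 fell (7.69%) and 24 did not pass, with a median of -0.13. Beside this, 3.61% of all genes passed, and 5.35% of the 7377 genes at least as abundant as the least abundant member. Lipa, lysosomal acid lipase, had the most counts of them, and its difference was -0.23 (limma adjusted p = 0.323). Ctsa, the protective protein that holds Neu1 and Glb1 in their complex, had 36621, 34374, 35218 and 37848 normalised counts in the control and 24478, 26601, 27115 and 25083 in the knockout. The groups were far apart, and the difference was -0.48 with a standard error of 0.06 (limma adjusted p = 0.00733), kept in all 8 fits without 1 library. Its partners Neu1 and Glb1 had differences of 0.09 and 0.07 that did not pass.

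Of 14 genes for tagging and sorting the enzymes, 1 fell (7.14%) and 13 did not pass, beside the same 3.61% and 5.35%. Cln8, which carries new lysosomal enzymes out of the endoplasmic reticulum, had 7164, 6012, 6339 and 6254 normalised counts in the control and 4579, 5181, 5321 and 5273 in the knockout. The groups did not overlap, and the difference was -0.34 (limma adjusted p = 0.0386), lost in 7 of the 8 fits without 1 library. Igf2r, a mannose 6-phosphate receptor, was estimated at -0.39 (limma adjusted p = 0.0676). Of the 4 MiT/TFE factors 0 passed in limma, 2 had an unadjusted limma p under 0.05 and were lower, edgeR called 0, and DESeq2 called 2 lower. Across all genes 10.4% were lower at that unadjusted p, and DESeq2 called 6.23% lower. Mitf was at -0.33 (limma adjusted p = 0.0792), Tfeb at -0.33 (limma adjusted p = 0.0823), Tfe3 at -0.07 and Tfec at -0.05.

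Markers of macrophages and of other cells were read beside these counts, because in bulk samples fewer cells of a type and less RNA per cell cannot be told apart. Of 15 macrophage markers, 5 fell (Mpeg1, Itgam, Csf1r, Msr1 and Cd68) and 10 did not pass, with a median of -0.34. Beside these 33.3%, limma called 2.38% of all genes lower, and 4.09% of the 7377 genes at least as abundant as the least abundant member. The estimate was below 0 for 13 of the 15 markers and above 0 for 2, Mrc1 (0.19, limma adjusted p = 0.330) and Aif1 (0.03). The summed normalised counts of the 15 markers were 437084 to 624066 in the control and 391717 to 415343 in the knockout, without overlap. Adgre1, which encodes F4/80, was at -0.21 (limma adjusted p = 0.346) with overlapping groups. Of 10 endothelial and mural markers 0 passed in limma and edgeR, 7 had an unadjusted limma p under 0.05 and were higher, and DESeq2 called 2 higher. Across all genes 10.8% were higher at that unadjusted p, and DESeq2 called 4.66% higher. All 10 of these markers were estimated above 0, with a median of 0.51. Their summed counts were 79288 to 136378 in the control and 129204 to 176538 in the knockout. Of 7 fibroblast markers 0 passed in limma and edgeR, 2 had an unadjusted limma p under 0.05 and were higher, and DESeq2 called 1 higher. All 7 were estimated above 0, with a median of 0.35, and the sums were 94057 to 161145 and 128127 to 199164. Sums of the scarcer types were 1237 to 1708 and 1795 to 2248 for 6 adipocyte markers, 4954 to 6411 and 4161 to 4682 for 8 T and NK cell markers, and 959 to 1582 and 1925 to 2157 for 6 dendritic cell markers. Most of the T and NK cell sum came from Il7r, with means of 5102 and 3746 (-0.45, limma adjusted p = 0.106), while the other 7 markers of that list were estimated above 0 and the list's median was 0.83. The sums were 501 to 1157 and 714 to 1820 for 4 B cell markers, 877 to 1807 and 926 to 1621 for 3 neutrophil markers, and 314 to 523 and 324 to 923 for 4 mesothelial markers. The 5 mast cell and eosinophil markers summed to 647 to 1634 and 1477 to 2192. DESeq2 called 2 adipocyte, 1 dendritic cell, 2 mast cell and eosinophil and 2 mesothelial markers higher and 1 T and NK cell marker lower. Over all genes it called 4.66% higher and 6.23% lower. Every measured adipocyte, B cell, dendritic cell, mast cell and eosinophil marker was estimated above 0. The same held for 2 of 3 neutrophil and 3 of 4 mesothelial markers. Siglecf, an eosinophil marker, rose from 54.1 to 118 mean normalised counts (1.13, limma adjusted p = 0.0297), the only marker outside the macrophage list that passed in limma. It no longer passed in 7 of the 8 fits without 1 library, and among the macrophage markers the same held for Csf1r in 7 fits, Cd68 and Msr1 in 3 each and Mpeg1 in 1, while Itgam passed in all 8. No measured marker was at 0 in any library, and Ly6g, Retnlg and Epx were not analysed here. The part of these markers in the members' differences was not tested.

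**Figure D5:**
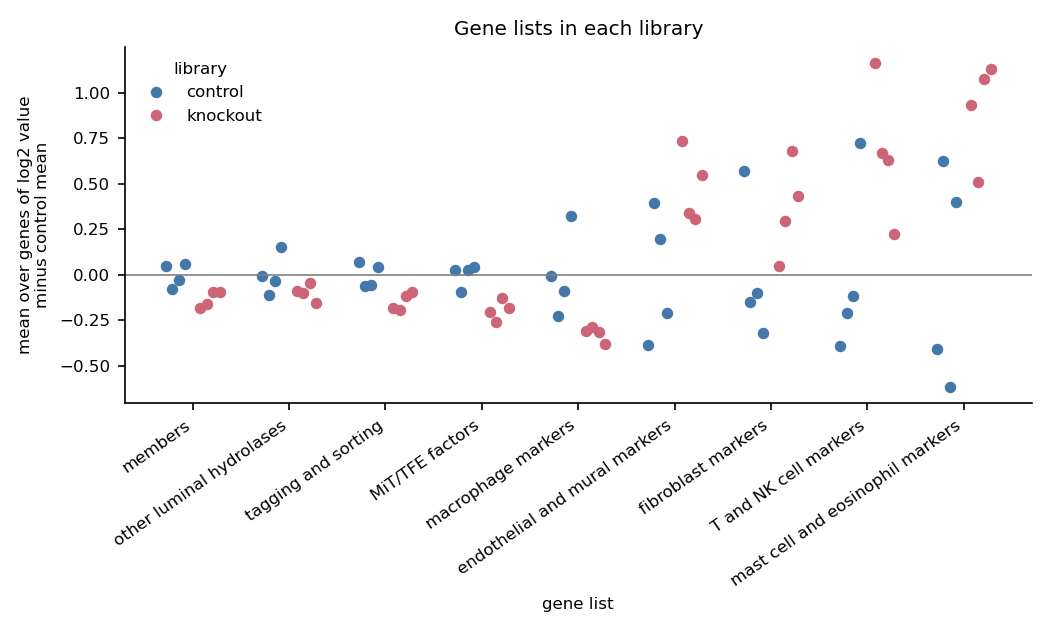
Mean over the genes of each list of log2(normalised count + 1) minus the control mean, with 1 point per library, for the members, the related lysosomal lists and 5 cell type marker lists. The members, tagging and sorting genes, MiT/TFE factors and macrophage markers are lower in all 4 knockout libraries than in all 4 control libraries. The other luminal hydrolases and the endothelial, fibroblast, T and NK cell and mast cell lists overlap between the groups.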

How the data were processed

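RNA sequencing of 4 control and 4 knockout samples was read from 2 deposited tables. The authors' gene counts were divided by 1 size factor per sample and deposited as a normalised count (unit: signal). Tools named in the submitters' processing notes are Salmon, cutadapt, FastQC and DESeq2, and the build is mm10, without versions or order. The authors' deposited DESeq2 table gives log2 ratios with the control above the knockout, its standard error and test statistic (score), and a p-value and adjusted p-value. Here its sign was turned to knockout minus control.

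From the normalised counts, limma 3.58.1 (R 4.3.3) was run on log2(value + 1) with an intensity trend, over 15862 genes with a mean of at least 10, at an adjusted p threshold of 0.05 and with no covariates. Samples were grouped by the labels. Dividing each library's values by its scaling step gave whole reads, within 0.01, for 100% of values, although in control replicate 4 the step is near 1 and does not tell scaled from rounded counts. These reads were used for edgeR 4.0.16 (556 genes called) and DESeq2 1.42.0 (1557 genes called) as alternatives. Other alternatives were pseudocounts of 0.5 and 5, no filter, a mean of at least 50, the same total in each library, quantile normalization, a replicate block and leaving out each library. Simulated counts with known changes and the same spread setting for every gene were used to test the limma, edgeR and DESeq2 steps. Libraries of a group differed by a chi-square of at least 8.99 per gene, so none was counted as a copy. In 21 rows the symbol had become a date and names no gene here. Every member is named, with values in each sample for those past the threshold and, per substrate class, for the smallest p and the highest mean; of the other lists, those past the threshold, the 2 smallest p and the most abundant were eligible, and 1 gene among the other luminal hydrolases is counted but not reported here. The members and lists were chosen with earlier results of these data known.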

Additional observations from a re-analysis of the deposited data

Results flagged for a closer look

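Gusb in control replicate 1 had 26850 normalised counts, beside 22275, 22584 and 22690 in the other control libraries. Its gap to the nearest of them was 0.909 of the range of the group, above Dixon's critical value for 4 samples. Among 66 groups of 4 examined this was the 1 that stood out, where chance alone gives about 1 in 20.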

How the results depend on the processing

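The count of members that fell was 5, and it became 3 with the same total in each library, 2 with quantile normalization and 11 with DESeq2, and 1 to 4 when 1 library was left out. The count that rose was 1, and 2 with DESeq2, and stayed 1 in every fit without 1 library. Over all genes, DESeq2 called 1557 (891 lower and 666 higher) and the fits without 1 library 163 to 502. Beside 377 lower and 196 higher in the main fit, quantile normalization called 331 lower and 158 higher. The same total called 244 lower and 245 higher. Of the other luminal hydrolases DESeq2 called 6 lower, and 1 higher as did the same total and quantile normalization, while 1 to 3 fell in the fits without 1 library. Of the tagging and sorting genes, the same total and quantile normalization called 0 lower and DESeq2 2, and the fits without 1 library 0 to 1. The members' median lay between -0.18 and -0.13 without 1 library, and was -0.10 with the same total, where the median of all genes moved by 0.06. The direction reversed with the same total for Galns (0.0321), Man2b1 (0.0409), Aga (0.00276), Lgmn (0.00896), Plbd2 (0.0301) and Tfec (0.01003), and with quantile normalization for Man2b1 (0.0884), Lgmn (0.13) and Plbd2 (0.0347). Without 1 library these were -0.0573 to 0.0171 for Galns, -0.0450 to 0.0243 for Man2b1, -0.101 to 0.0161 for Lgmn, -0.0609 to 0.0159 for Plbd2 and -0.0978 to 0.0164 for Tfec. The cause was not tested. None of these 6 genes had passed the test. edgeR, the pseudocounts and the filters left every count within 1.5 times.

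With the replicate number as a block, 0 members fell, 0 rose, 7 genes of the table were called, 0 other luminal hydrolases and 0 tagging and sorting genes fell, and Gaa and Pla2g15 had an adjusted p of 0.0740. The labels do not say whether same-numbered samples share a litter or a day. Deviations of same-numbered samples correlated at -0.293 to -0.036, and no sample correlated best with the sample of its own number. With 4 libraries per group, whose deviations are taken from their own group mean, these correlations cannot settle whether the samples are paired.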
